A study of Mus musculus with 4 samples.

Results

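The sites described here are the 719 NR1D1 peaks that lie inside genes and were called both in vasostatin-2-treated and in PBS-treated vascular smooth muscle cells, of 7377 peaks in the PBS list. Members were chosen by the peak calls and their q values: a PBS peak was taken when 1 bp or more of it was shared with a vasostatin-2 peak, when its summit lay inside an annotated gene and more than 1 kb from the ends of every gene, and when its -log10 q was below 100. The last condition left out 10 peaks with extreme pileups. Cells were primary aortic smooth muscle cells of WT mice, kept for 24 h with vasostatin-2 or with phosphate-buffered saline (PBS), and chromatin was profiled by CUT&Tag, in which an antibody guides a transposase to the protein's binding sites. Each treatment had 1 library with an NR1D1 antibody; the IgG libraries were not analysed here. Strain, age, number of mice and the dose of vasostatin-2, a peptide cut from chromogranin A, are not stated in the labels. The peak lists hold no expression values, so the labelled cell type could not be checked against its marker genes.

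NR1D1, also called REV-ERB alpha, is a heme-binding nuclear receptor that recruits the NCoR-HDAC3 corepressor and represses the genes it binds. It recognises a response element called RORE, an AGGTCA motif behind an A/T-rich stretch, which it shares with the activating ROR receptors. Through such elements it represses Arntl, the gene of the clock activator BMAL1, and Nfil3, while other contacts with chromatin pass through partner factors at enhancers inside and between genes. An annotated gene often contains more than 1 promoter, so that a peak well inside a gene can still sit at a transcript start.

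Because each treatment was profiled once, the spread between replicates is unknown and the treatment effect was not tested. Intervals of single sites cover the counting error of their fragments only. Those of shares and medians cover the limited number of sites or genes, taken as independent. None covers the spread between libraries. Fragments at each summit were recovered from the caller's values. By the background values of the caller, the inferred depth of the vasostatin-2 library was 1.32 times that of the PBS library. This takes each background to come from the NR1D1 library itself. Whether the IgG libraries served as the caller's control is not given. The summits of the members held 4 to 131 fragments in the vasostatin-2 library (median 10) and 4 to 96 in the PBS library (median 10). Since the rule needs a peak in both lists, its choice of members, their fragments and their enrichment are given as a description.

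The shared peaks inside clock genes included promoters of Arntl and Nfil3, the classical REV-ERB targets, and of Tef, which encodes a clock output factor that binds D-boxes. The summits lay 28833 bp (Arntl), 1829 bp (Nfil3) and 8578 bp (Tef) from the nearest gene end, and 161, 10 and 163 bp in the same order from an internal transcript start. The sequences below are shown because the clock peaks overlap them; they are taken from RefSeq on GRCm38.p6, the assembly of mm10, and read 5′ to 3′ along the gene. The first is the 250 bases before an internal Arntl start, chr7:113207215-113207464 on the plus strand, with each CCAAT box in capitals (ATTGG where it lies on the other strand). The Arntl peak covered chr7:113207157-113207846 in the PBS list.
Arntl: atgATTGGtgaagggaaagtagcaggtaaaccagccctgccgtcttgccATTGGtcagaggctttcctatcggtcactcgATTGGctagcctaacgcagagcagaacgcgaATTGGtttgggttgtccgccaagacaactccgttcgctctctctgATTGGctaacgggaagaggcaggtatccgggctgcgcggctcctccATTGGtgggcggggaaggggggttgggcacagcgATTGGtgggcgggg
The next is the same stretch before the Tef start, chr15:81811164-81811413 on the plus strand, with the E-box CACGTG, the element bound by BMAL1 and CLOCK, in capitals.
Tef: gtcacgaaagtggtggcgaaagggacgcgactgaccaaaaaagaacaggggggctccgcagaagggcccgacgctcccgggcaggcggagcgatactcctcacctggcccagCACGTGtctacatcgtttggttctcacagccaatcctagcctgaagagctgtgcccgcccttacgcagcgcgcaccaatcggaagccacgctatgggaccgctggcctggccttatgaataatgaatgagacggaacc
The last is the stretch before the Nfil3 start, chr13:52981040-52981289 on the minus strand, with TGACCTA, the reverse complement of TAGGTCA, in capitals.
Nfil3: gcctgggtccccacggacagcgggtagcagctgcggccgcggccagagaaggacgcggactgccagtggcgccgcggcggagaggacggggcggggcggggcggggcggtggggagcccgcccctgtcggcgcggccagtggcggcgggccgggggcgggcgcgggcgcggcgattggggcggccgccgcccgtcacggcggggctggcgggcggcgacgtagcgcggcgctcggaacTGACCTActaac

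The 7-base core of the RORE, TAGGTCA or TGGGTCA on either strand, was found in promoter windows (250 bases before to 50 after a start) of 8 genes whose window was overlapped by a shared peak inside a gene. At 5 of these genes a core lay inside the peak of both lists, and at the other 3 (Acer3, D2hgdh and Taok2) it lay in the window but outside the peak. The 5 are aligned here on the core, in capitals, each in 30 bases on the strand that carries it, to show the flanks that precede it; Taf1 held 2 cores, of which the one inside both peaks is shown.
Arntl: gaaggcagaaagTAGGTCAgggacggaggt
Nfil3: gatgtgtgttagTAGGTCAgttccgagcgc
Rbm15: gcttctaggcttTGGGTCAggtgaccatga
Morf4l2: cgctccagccgtTGGGTCAgaagtctatag
Taf1: ttccagaggtcgTAGGTCAcgccgcctcag
Of these the Arntl site, chr7:113207529-113207558 on the plus strand, is the single match to the full RORE consensus, and its core begins 30 bases after the second of a pair of annotated internal starts. The Nfil3 core, within chr13:52981033-52981062 on the plus strand, begins 12 bases before the start. The others lie at chr3:107333279-107333308 on the minus strand (Rbm15), chrX:136741572-136741601 on the plus strand (Morf4l2) and chrX:101532501-101532530 on the plus strand (Taf1). The peaks over them had 9 fragments with vasostatin-2 and 15 with PBS at Rbm15, and 13 and 11 at Taf1. Of all 123 windows overlapped by a member, in part or whole, 9 held the core (7.32%, 95% Wilson interval 3.90 to 13.3), against 61 of 1333 windows overlapped by a shared gene-end peak (4.58%, 3.58 to 5.83) and 2120 of all 32850 windows (6.45%). The share in windows overlapped by members thus lies near that of all windows. The full consensus was present in 1 of 123 windows (0.813%) and in 126 of all windows (0.384%), and the direct repeat RevDR2, to which REV-ERB dimers bind, in 0 of 123. AGGTCA alone was found in 15.4% of windows overlapped by a member (10.1 to 22.9), in 9.15% of those overlapped by a shared gene-end peak (7.72 to 10.8) and in 16.3% of all windows. TAGGTCA contains AGGTCA and TGGGTCA does not, so these counts overlap in part.

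The windows overlapped by members and by shared gene-end peaks had nearly the same share with CCAAT and the same median GC content, while other motifs varied. CCAAT was found in 48.0% of the windows overlapped by a member (39.3 to 56.7), in 47.9% of those overlapped by a shared gene-end peak (45.2 to 50.6) and in 37.4% of all windows. CACGTG was found in 9.76% (5.67 to 16.3), 8.93% and 7.15% in the same order, and TGACTCA, the AP-1 site, in 4.88% (2.26 to 10.2), 2.40% (1.71 to 3.37) and 5.20%. GGAATG, the TEAD site, was found in 8.13%, 10.4% and 14.7%, and the palindromic NFI site in 0 windows overlapped by a member. Both strands were searched, and overlaps between different motifs were not removed. The median GC content was 64.0% for members and 64.0% for shared gene-end peaks, against 52.3% for all internal starts and 52.7% for all windows, and the ratio of observed to expected CpG was 0.818, 0.824, 0.327 and 0.384 in that order.

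Of the 701 members on chromosomes with annotated starts 121 (17.3%, 95% Wilson interval 14.6 to 20.2) lay within 1 kb of an internal start, and the start belonged to a host gene in all 121. The same zone makes up 0.83% of the sequence that could hold a member, which is the sequence inside genes and over 1 kb from every gene end. Within 250 bp lay 70 members (9.99%), against 0.20% of that sequence. The other 580 members lay farther from any annotated start, and the 18 members on chromosome 18 were not assessed. Peaks inside genes that were called in a single list were near such a start at 2.66% in the vasostatin-2 list (72 of 2708, 2.12 to 3.34) and at 9.29% in the PBS list (160 of 1723, 8.01 to 10.8). The groups differ in fragments, so the shares were also taken at like numbers. Members with 9 to 12 PBS fragments were near a start at 14.6% (10.4 to 20.03) and PBS-only peaks with as many at 15.6% (11.8 to 20.3). At 13 to 20 fragments the shares were 28.7% (22.3 to 36.01) and 18.8% (11.9 to 28.4), with intervals that overlap. Vasostatin-2-only peaks with 13 to 20 fragments of their own were near a start at 1.14% (0.201 to 6.16), and over their 5 classes of fragments the share ran from 0.0% to 3.26% without an order.

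**Figure D1:**
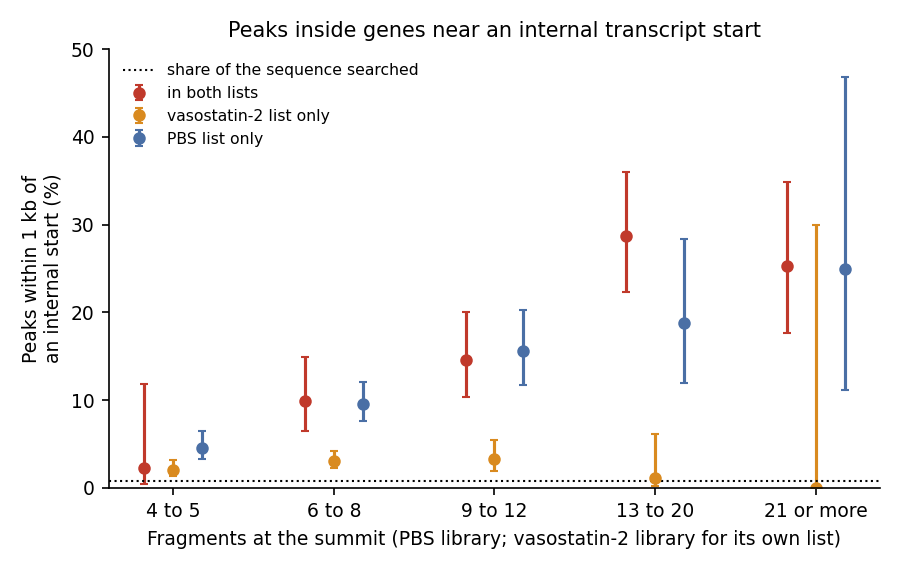
Share of peaks inside genes with the summit within 1 kb of an internal transcript start, in percent with 95% Wilson intervals, by fragments at the summit, for the shared peaks, the vasostatin-2-only peaks and the PBS-only peaks. At 13 to 20 fragments 28.7% of shared and 18.8% of PBS-only peaks lie in the zone, against 2.27% and 4.59% at 4 to 5 fragments, while vasostatin-2-only peaks stay below 4%; the dotted line is the 0.83% of sequence that lies in the zone.

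Members at internal starts lay in genes of many functions. Ranked by the authors' fold enrichment in PBS, a ranking chosen after the values were seen and one that favours sites with more PBS fragments, the first was in Rnf126, a ubiquitin ligase gene, with 26 fragments in the vasostatin-2 library and 51 in the PBS library. Next came Morf4l2, a chromatin-associated MRG-family gene, with 9 fragments with vasostatin-2 against 26 with PBS, 11 bp from a start. Yipf6, a Golgi membrane protein gene, had 15 against 34, and Aph1b, a subunit gene of gamma-secretase, had 23 against 33. The genes that follow were not taken by rank, and sites between them are left out. Lmna, which encodes the nuclear lamins A and C, carried shared peaks at a pair of internal starts, with 24 fragments with vasostatin-2 against 39 with PBS at the one on chromosome 3, 88503051 to 88503769, and 16 against 33 at the one at 88492467 to 88493408. Socs3, the feedback inhibitor of cytokine signalling through JAK and STAT, had 18 against 28 fragments, 75 bp from a start. Mrtfb, a coactivator of the smooth muscle regulator SRF, had 6 against 16, 270 bp from a start. Hif1a, the hypoxia-response factor gene, had 7 against 10, 253 bp from a start. Its PBS fold of 7.38 lies close to the median of 7.04 for members near an internal start.

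At shared peaks inside genes the signal ratio between the libraries differed with the distance to a start. Over all 719 members the vasostatin-2 library held fewer fragments per unit of depth at 545 sites (75.8%, 95% Wilson interval 72.5 to 78.8), with a median log2 ratio, vasostatin-2 over PBS, of -0.40 (95% interval of the median by order statistics -0.52 to -0.40). A log2 ratio of -0.40 is what equal fragments give after division by 1.32, and ties at that value are frequent. The direction over all members rests on the inferred depth factor: without it 47.7% of sites were lower and the median was 0.0, and with the authors' fold in place of fragments 53.8% were lower and the median was -0.032. At the 121 members near an internal start the median was -0.81 (-0.95 to -0.70) and 96.7% were lower, with a median of 10 fragments in the vasostatin-2 library and 14 in PBS. At the 580 members away from starts it was -0.40 (-0.40 to -0.40) and 71.5% were lower, with a median of 10 fragments in each library. The 1303 shared gene-end peaks had a median of -0.81 (-0.86 to -0.78), and 94.6% of them were lower. The medians near internal starts and at gene ends thus coincide to 2 decimals. Small whole counts allow few ratios and ties are frequent at this value too, so the match is a coarse one. No test of the differences was made.

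**Figure D2:**
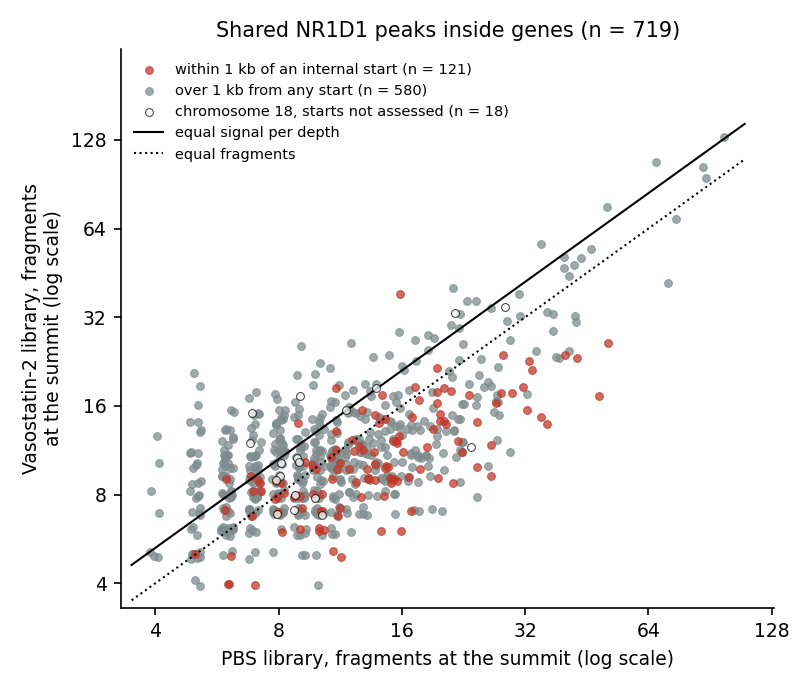
Fragments at the summit of each shared peak inside a gene, PBS on the horizontal and vasostatin-2 on the vertical axis, both on log scales and with a small random shift against overplotting; the solid line marks equal signal per depth and the dotted line equal fragments. Of the 121 members near an internal start 117 lie below the solid line, while the 580 away from starts spread to both sides, with 415 below.

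A ratio of 2-fold or more lower was seen at 128 members (17.8%), against 25.5% of all 2599 shared peaks. Near internal starts 42 of 121 members (34.7%) were that low, away from starts 85 of 580 (14.7%), and at gene ends 468 of 1303 (35.9%). A ratio of 2-fold or more higher was seen at 8 members (1.11%), against 0.539% of all shared peaks, and near internal starts at 0 of 121. Because the number of fragments limits how far a ratio can move while both peaks are still called, the comparison was repeated among sites with like totals. With 30 or more fragments in both libraries together the median was -1.05 near internal starts (38 sites, -1.24 to -0.90), -0.55 away from starts (114 sites, -0.75 to -0.31) and -1.05 at gene ends (397 sites). With 20 to 29 fragments it was -0.78 (47 sites), -0.40 (209 sites) and -0.81 (425 sites), and with fewer than 20 it was -0.63 (36 sites), -0.25 (257 sites) and -0.62 (481 sites).

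By distance from the start the ratios were as follows. The median was -0.85 (-1.04 to -0.66) for the 70 members within 250 bp and -0.81 (-0.98 to -0.59) for the 51 members at 250 bp to 1 kb. It was -0.56 (-0.69 to -0.40) for 94 members at 1000 to 5000 bp, and -0.40 both for 191 members at 5000 to 20000 bp and for 295 members beyond. A depth factor adds the same amount to every ratio and so leaves the gap between near and far sites as it is. With the authors' fold, which divides by the local background, the gap was smaller, with medians of -0.19 within 1 kb of a start and -0.006 away from starts.

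**Figure D3:**
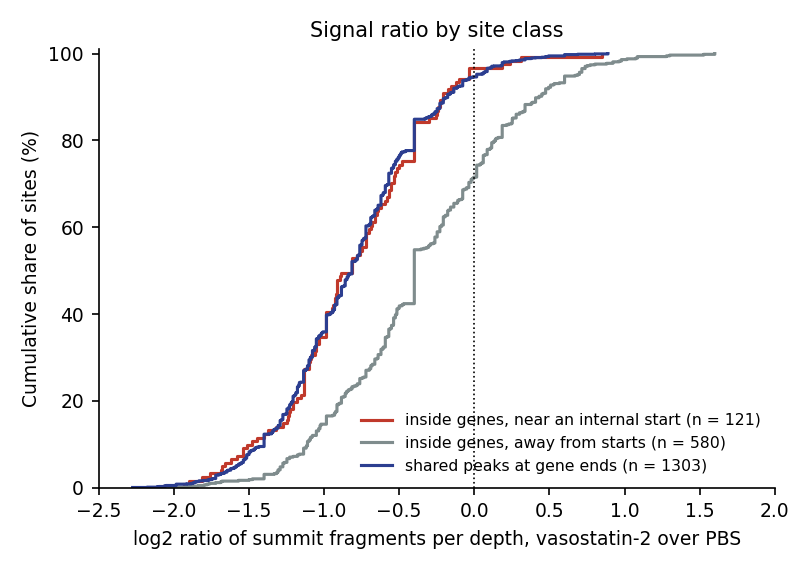
Cumulative share of sites, in percent, by log2 ratio of summit fragments per depth, vasostatin-2 over PBS, for shared peaks inside genes near an internal start, for those away from starts and for shared peaks at gene ends. The curves of sites near internal starts and at gene ends run together with medians of -0.81, and the curve of sites away from starts lies to their right with a median of -0.40.

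The lowest ratios among members with at least 30 fragments together came from sites of both kinds. Glis1, a zinc finger factor gene, had 8 fragments in the vasostatin-2 library and 25 in the PBS library (log2 ratio -2.04, 95% exact binomial interval -3.40 to -0.85), 33305 bp from any start. Morf4l2 had a log2 ratio of -1.93 (-3.21 to -0.79). Tef had 17 fragments with vasostatin-2 and 48 with PBS (-1.90, -2.79 to -1.07), and its interval excludes 0 by the widest margin of these 5. Iqck had 11 and 29 (-1.80, -2.95 to -0.75), and Kat6b, a histone acetyltransferase gene, had 10 and 26 (-1.78, -2.99 to -0.68), 1011 bp from a start and so just outside the 1 kb zone. The highest ratios were smaller in size, and their intervals include 0. Gm5089 had 25 fragments with vasostatin-2 and 9 with PBS (1.07, -0.07 to 2.36). Acot7, an acyl-CoA thioesterase gene, had 38 and 16 (0.85, -0.03 to 1.79) at 97 bp from an internal start. With Dnmt1 (18 and 11), Bsn (14 and 9) and Dennd4a (9 and 6) it made up the 4 near-start members with a higher depth-scaled signal in the vasostatin-2 library. Tspan15 (23 and 10), Lefty2 (26 and 12) and Ap1b1 (21 and 10) followed.

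Clock genes hosted 6 of these peaks among 26 listed genes (23.1%), where 582 of 21887 protein-coding genes did (2.66%). Arntl, the activator, had 13 fragments in the vasostatin-2 library and 19 in the PBS library (log2 ratio -0.95, -2.09 to 0.15). Rora, the gene of the activating receptor that competes with NR1D1, had 13 and 20 (-1.02, -2.15 to 0.06), at a site on chromosome 9, 69099648 to 69100280, 176053 bp from the nearest gene end. Of the outputs, Tef is given above, and Nfil3, a repressor at D-boxes, had 23 and 28 (-0.68, -1.55 to 0.17) with its summit 10 bp from the start. Cry1, a repressor of CLOCK and BMAL1, had 8 in each library, 23094 bp from a start, and Fbxl21, which encodes an F-box protein that targets cryptochromes, 7 in each. The Tef interval excludes a ratio of 0 on the log2 scale and the other 5 include it. The host genes were 15511 bp (Fbxl21), 15670 bp (Nfil3), 24191 bp (Tef), 53355 bp (Cry1), 135656 bp (Arntl) and 734843 bp (Rora) long. Long genes host more peaks of this kind, and whether length bears on this count was not tested. The lists were drawn up with earlier results of these data known, so the count is a description.

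**Figure D4:**
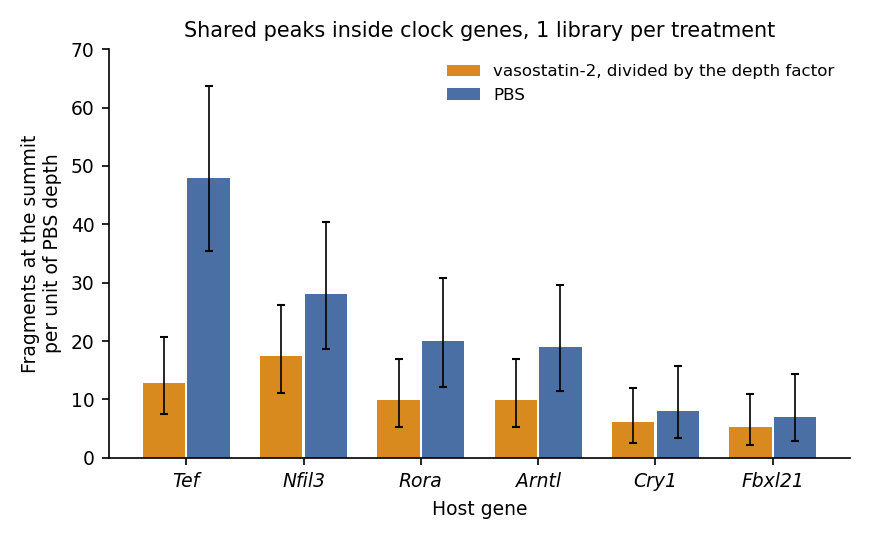
Fragments at the summit of the shared peaks inside 6 clock genes, the vasostatin-2 library (divided by the depth factor of 1.32) left of the PBS library, with exact Poisson 95% intervals of 1 library each. Tef has the widest gap, with 17 fragments as counted with vasostatin-2 against 48 with PBS; at the other 5 genes the intervals overlap.

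Of the 8 members with the highest fold enrichment in PBS, by the authors' values, 7 lay away from annotated starts and the last, in Kctd16 on chromosome 18, was not assessed. The first was in Dop1b, with 69 fragments with vasostatin-2 and 76 with PBS (26.9-fold and 25.2-fold), in a peak only 195 bp wide in the PBS list, close to the inferred fragment length of 195.9 bp. The next was in Mdga2, a synaptic adhesion gene, with 104 and 88 fragments (22.7-fold and 20.3-fold), 163085 bp from a gene end. Cdk8, the kinase of the Mediator complex, had 32 and 43 fragments, and Aida 56 and 45. Cldn34d on chromosome X had 104 and 66, Gm36876 31 and 42, and Kctd16, a GABA-B receptor subunit gene, 34 and 29. Usp34, a deubiquitinase gene, had the lowest ratio of the 8, with 23 and 37 (log2 ratio -1.08, -1.90 to -0.30). In all, 66 members were no wider than 1.1 fragment lengths in the PBS list, 10 of them in both lists. Repeated sequence was not masked here, and whether such narrow stacks reflect NR1D1 was not tested.

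The members away from starts were spread along their genes, and those at internal starts lay toward the 5′ end. Strand was known for the protein-coding host of 496 members, and the median summit lay at 0.402 of the gene's length from its 5′ end. Of 120 members near an internal start 53.3% (44.4 to 62.0) lay in the first 20% of the gene's length and 1.67% in the last 20%. These members can lie only where internal starts are annotated. Positions of all annotated internal starts were not compared, so this share is a description. Of 376 members away from starts 19.4% (15.7 to 23.7) lay in the first 20%, and 13.8% (10.7 to 17.7) in the last 20%. The nearest gene end lay a median of 8643 bp from the summit, with quartiles of 3202 and 22122 bp. The 5 most remote were in Ppargc1a, the coactivator PGC-1 alpha (290460 bp; 13 fragments with vasostatin-2, 4 with PBS), Mgat4c (208087 bp; 21 and 11), Pcdh15 (201174 bp; 9 and 10), Rora and Kalrn (175207 bp; 12 and 14). Exons and introns were not annotated here.

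**Figure D5:**
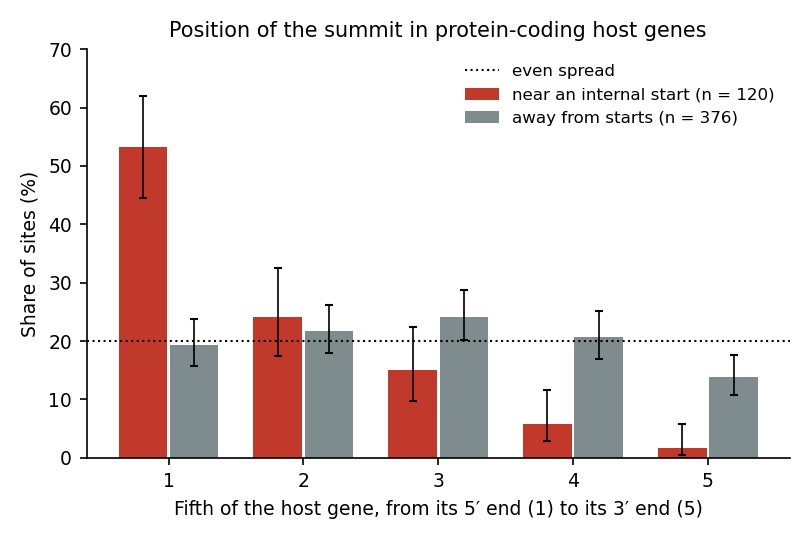
Share of members, in percent with 95% Wilson intervals, in 5 equal segments of the protein-coding host gene from the 5′ to the 3′ end, for members near an internal start and members away from starts; the dotted line is an even spread of 20%. The first segment holds 53.3% of the members near an internal start, and each segment holds 13.8% to 24.2% of those away from starts. Positions of all annotated internal starts are not drawn.

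The hosts were long genes, and the share of them with a peak at a gene end depended on the setting. Of the members 626 lay in a protein-coding gene, 82 in a long noncoding RNA gene alone and 11 in other kinds of gene; 38 lay inside more than 1 gene. The 582 protein-coding hosts had a median length of 69.5 kb, against 17.2 kb for all protein-coding genes. A member was hosted by 0.776% of genes up to 20 kb long, 2.85% at 20 to 50 kb, 4.97% at 50 to 100 kb, 7.91% at 100 to 300 kb and 12.9% (10.4 to 15.97) beyond 300 kb. A peak with its summit within 1 kb of a gene end was present in the vasostatin-2 list at 55 hosts (9.45%, 7.33 to 12.1), against 10.0% of all protein-coding genes and 12.4% of those of like length (28.1 to 148.0 kb, the quartiles of the hosts). In the PBS list it was present at 78 hosts (13.4%, 10.9 to 16.4), against 14.3% and 17.3%. The 582 hosts were not limited to the length range of the comparison genes, so lengths are matched only in part. The PBS share was also taken under other settings. It was 18.6% (13.97 to 24.3) for hosts of members with -log10 q of at least 5 in both lists. With at least 8 fragments in both lists it was 16.7% (13.3 to 20.7). A gene-end peak in both lists was present at 33 hosts (5.67%, 4.07 to 7.86), against 6.91% of all protein-coding genes and 8.52% of those of like length. Hosts of a member at an internal start had a gene-end peak at 12.4% in the vasostatin-2 list and 14.9% in the PBS list (18 of 121). These shares lie near the 10.0% and 14.3% of all protein-coding genes. Most of these hosts had no peak at either outer end, which holds for most protein-coding genes.

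Several peaks in 1 gene were rare. Of the protein-coding hosts 39 held 2 or more members, 90 in all. Sfi1, a centrosomal gene on chromosome 11, held 7 within 39.9 kb, with 34 to 74 fragments in the vasostatin-2 library and 32 to 51 in PBS. Their fold enrichment of 2.48 to 3.74 with vasostatin-2 and 2.70 to 3.62 with PBS was among the lowest of all members, beside a local background of 12.6 to 19.1 and 10.3 to 15.8 fragments. Shank2, a postsynaptic scaffold gene, held 4 across 283.5 kb, with 7 to 33 and 6 to 32 fragments, and Cdh13, the T-cadherin gene, 4 across 682.9 kb, with 6 to 20 and 5 to 10. Dop1b, Ttc28 and Slc25a25, a mitochondrial ATP-Mg/phosphate carrier gene, held 3 each. The Slc25a25 sites lay within 9.0 kb and had log2 ratios of -1.66 to -0.93, with 9 to 13 fragments with vasostatin-2 and 13 to 24 with PBS; the lowest of them, with 10 and 24, lay 110 bp from an internal start. Samd5 held 2, with 15 and 22 fragments with vasostatin-2 and 8 and 16 with PBS. The Lmna sites are given above.

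Beyond the clock, 37 other listed genes hosted a member. Of all 578 listed genes 43 did (7.44%), against 2.66% of all protein-coding genes. Lengths of the listed genes were not compared with those of all genes. Among nuclear receptors and corepressors 2 of 31 hosted one. Thra, the thyroid hormone receptor gene that lies beside Nr1d1, had 11 fragments in the vasostatin-2 library and 17 in PBS, and Nr4a2 had 15 and 12. Among contractile genes 3 of 26 did. Pdlim7, which encodes an actin-binding PDZ-LIM protein, had 19 and 26, and Mrtfa, the second SRF coactivator, 6 and 5. Of the TGF-beta and BMP genes 5 of 32 did. The transducer Smad3 had 11 and 10, the coreceptor gene Eng 14 and 10, the ligand gene Bmp6 13 and 10, and Ltbp4, a latent TGF-beta binding protein gene, 9 and 17; Ltbp3 was the other.

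Of the growth factor genes 4 of 36 hosted a member. Igf1, a ligand, had 6 fragments with vasostatin-2 and 9 with PBS, the receptor gene Insr 11 and 7, and the collagen receptor gene Ddr1 15 and 13 at the site with more fragments of a pair. Ion channel, calcium and cyclic nucleotide genes counted 5 of 37. Pde4b, a cyclic AMP phosphodiesterase gene, had 21 in each library, Cacna1d, an L-type calcium channel gene, 12 and 13, Camk2d 8 and 9, and Pde7b 14 and 8, with Prkce the other. Lipid and glucose genes counted 5 of 29. Acaca, the first enzyme of fatty acid synthesis, had 9 and 16, Abca1, the cholesterol exporter, 19 and 10, the glucose transporter gene Slc2a1 7 in each, and Lrp1 8 and 9; Ppargc1a is given above. With the depth factor of 1.32 the interval of the log2 ratio of Ltbp4 excludes 0 (-1.32, -2.67 to -0.07). Its upper limit is close to 0. Among genes of other lists, those of Mrtfb (-1.81, -3.46 to -0.39), Socs3 (-1.04, -1.98 to -0.13) and Cdk8 (-0.825, -1.53 to -0.13) exclude 0 too. The intervals of the others named here for the growth factor, ion channel and lipid lists include 0.

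Smaller counts came from the remaining lists. NF-kB and inflammatory genes counted 2 of 29, with Tnip1 at 11 fragments with vasostatin-2 and 18 with PBS beside Socs3. Wnt and Hippo genes counted 2 of 29, with Tead3 at 16 and 15 and the Wnt5a receptor gene Ror2 at 8 and 7. Transcription factors of mesenchyme counted 2 of 40, with Runx1 at 10 in each library and Meis2 at 10 and 11. Cell cycle genes counted 2 of 26, with Cdk6 at 12 and 11 beside Cdk8. Single hosts were Col4a2 of 46 matrix genes, with 2 sites, Bcar1 of 30 adhesion genes (12 and 9) and Slc7a11, the cystine transporter gene, of 21 oxidative stress and ferroptosis genes (5 and 4). AP-1, immediate early and Kruppel-like factors (30 genes), autophagy genes (22) and ubiquitously expressed genes (18) hosted 0, and so did 14 endothelial and 14 leukocyte markers. As 2.66% of all protein-coding genes host a member, lists this short can easily hold none, and no absence is read from them. Of 14 fibroblast and neuronal markers the neuronal gene Rbfox3 hosted 1 (8 in each library).

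The edges of the rule were as follows. The members closest to the limit on -log10 q were those in Mdga2 (84.9) and Dop1b (84.3), and the first peaks left out were in Pdzd7 (104.7, 122 PBS fragments) and Ppp1r9a (137.2, 135 fragments). The members nearest to a gene end were in Zswim8 (1014 bp) and Gpr132 (1029 bp), and the nearest peaks left out were in Trpm3 (996 bp) and Mpp2 (984 bp). The smallest overlap with a vasostatin-2 peak was 4 bp, in Pakap and Focad, and the nearest PBS peak inside a gene without overlap, in Kat5, touched one at 0 bp. Summits in the lists lay within 200 bp of each other at 587 members (81.6%), with a median shift of 77 bp.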

How the data were processed

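Per the submitters' processing notes, the tools were MACS2 2.2.7.1, Trimmomatic 0.39 and BWA 0.7.17, with the build mm10; roles and settings are not given in the sources used here. Each deposited list comes from 1 library. Its columns follow the caller's order: the deposited fold (ratio of summit to local background), the -log10 p and -log10 q, a score from the authors' caller that was not used further, and the summit position (column 10). Fold and q are the authors' values.

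Fragments at each summit were recovered as the whole number that fits the fold (pseudocount 1) and the Poisson -log10 p within 0.0005, for 100% of peaks in both lists; 4 PBS peaks had a close second solution. The background floors of 0.381 (vasostatin-2) and 0.310 (PBS) and the background steps, read as 1 fragment end in 10000 bp, an assumed window, gave fragment lengths of 182.6 and 195.9 bp and the depth factor of 1.32. The factor applies to the NR1D1 libraries only if no IgG control entered the background. Total fragments are not given in the sources used here. In tests on simulated data 100% of 3000 fragment numbers were recovered, and the overlap step matched bedtools 2.31.1 for 100% of 4000 peaks.

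Genes (49943) and transcript starts (32850, of 27025 genes) came from RefSeq on GRCm38.p6; starts on chromosome 18 were not used here. Where 2 vasostatin-2 peaks met 1 member (10 cases), the one with more fragments was taken. Shares have 95% Wilson intervals, single ratios exact binomial ones; PCR copies and the choice of members are outside these. Python 3.11.15, scipy 1.17.1 and pandas 2.3.3 were used.

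The members and the 21 gene lists were chosen with earlier results of these data known. Genes are named by highest PBS fold (8), lowest and highest ratio among members with 30 or more fragments together (5 each), remoteness (5), number of members (8), lists (all clock genes, otherwise up to 4) and nearness to a limit. Comparison with internal starts, and genes said to be so, were chosen after seeing the values. Motifs were searched in promoter windows, since no genome was used here. Alternatives varied overlap, gene-end distance, gene set, q limits, fragment minimum, depth factor and start window. Results for some listed genes are not reported here.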

Additional observations from a re-analysis of the deposited data

How the results depend on the processing

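No paired analysis was possible because each treatment has 1 library. Settings for internal starts, listed genes and single sites were added once the values had been seen, and the rest were planned. Of 102 recomputed main values 72 stayed inside the interval of the reported value, or within 1.5 times a reported count, and 30 moved. All 178 values of named sites under other depth factors stayed inside their counting intervals. A factor shifts every ratio by the same amount, and the intervals are wider than that shift, so stability of single sites is not read from this. Whether an interval includes 0 can still change with the factor, for example at Gm5089, Acot7 and Ltbp4, where a limit lies close to 0. With -log10 q of at least 5 in both lists there were 246 members, 215 hosts and 17 listed genes; 81.3% of sites were lower with vasostatin-2, 21.7% lay near an internal start and 18.6% of hosts had a gene-end peak in PBS. With at least 8 fragments in both there were 469 members, a median log2 ratio of -0.52, 82.1% lower sites and 16.7% of hosts with a gene-end peak. Without a depth factor the median was 0.0 with 47.7% lower sites, -0.41 near internal starts and 0.0 away; with the floor alone it was -0.30 with 70.7% lower, and -0.30 away. With at least 30 fragments together it was -0.68 with 80.1% lower, -1.05 near and -0.55 away. With the authors' fold in place of fragments, which has no depth factor by construction, it was -0.032 with 53.8% lower, -0.19 near and -0.006 away. The median near internal starts was below that away from starts in each of these. Under other depth factors this holds by construction, because a factor shifts every ratio by the same amount. More than 3 kb from gene ends the median position was 0.464 and 11.6% lay near an internal start; with protein-coding genes only 22.6% did. Start windows of 250 and 2000 bp gave 9.99% and 22.0%. The cause of these shifts was not tested beyond what each setting changes by construction. Of the members 33.7% rest on 4 to 8 PBS fragments, which limits every single ratio.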
